A study of Mus musculus with 6 samples.

Results

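CD8 T cells of the mouse brain were taken as the cells that the study's authors placed in the class CD8+ when they sorted a droplet data set of brain immune cells into 10 classes. There were 728 such cells among 13052 cells in all. They were set beside 214 cells of the class CD4+ and 330 cells of the class ILCs (innate lymphoid cells), the 2 classes chosen for comparison. The cells came from whole brains of 24 female C57BL/6 mice in 4 groups of 6 mice: young (12 weeks) and aged (72 weeks) mice, each either kept as controls or given antibiotics to deplete the gut microbiota. Brains were perfused with PBS, digested with papain and enriched for mononuclear cells on a Percoll gradient. Within a group the mice were combined 2 by 2 into 3 pools, each marked with its own hashtag antibody, and the pool is the replicate throughout (12 pools).

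CD8 T cells recognise peptides on MHC class I through the T cell receptor, with CD8 (the chains CD8a and CD8b, genes Cd8a and Cd8b1) as coreceptor, and kill target cells with granzymes and perforin. Naive CD8 T cells recirculate through lymphoid organs with CCR7 and S1PR1, and lose these when they become effector or tissue-resident cells. In the brain, CD8 T cells are rare in young animals and gather with age, and many carry granzyme K (Gzmk) or markers of tissue residence such as CD69, CXCR6 and CD103.

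Each cell was read in 2 ways, as RNA (unique molecular identifiers, UMIs, on the 10x 3′ assay) and as DNA tags released from 34 antibodies against surface proteins. The tag tables hold 34 antibodies where the study's design text counts 31, without CD335, CXCR4 and KLRG1, and whether the panel was the same in both wells is not given in the sources used here. A tag is identified by a 15-base barcode. The barcodes of CD8a, CD4 and CD3, which mark the lymphocyte classes compared here, and of CD38 and Ly6C, which are 2 of the antibodies called between ages in CD8+ cells, are given 5′ to 3′ as the deposited antibody reference lists them, with the whole barcode in capitals because all of it is read.
CD8a: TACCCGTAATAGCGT
CD4: AACAAGACCCTTGAG
CD3: GTATGTCCGCTCGAT
CD38: CGTATCCGTCTCCTA
Ly6C: AAGTCGTGAGGCATG

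Young and aged cells were run in separate wells, so age and well cannot be told apart. Hashtags 1 to 3 marked the control and 4 to 6 the antibiotic pools in both wells, so hashtag and antibiotics cannot be told apart either. Every group held exactly 3263 cells. Median raw UMIs per CD8+ cell were 7272 and 9326 in the control and antibiotic groups of young mice and 6802 and 7091.5 in those of aged mice, with a range of 515 to 67306 over cells. Their median number of antibody tags was 2972 and 3152 in the young groups and 558.5 and 595 in the aged groups, so tags were compared as shares of all tags. Of the barcodes, 59 occurred in both wells, and 4 CD8+ cells had such a barcode.

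The label CD8+ was borne out by the markers. RNA of Cd3d, Cd3e or Cd3g, chains of the CD3 complex, was above 0 in 725 of 728 cells (99.6%) and RNA of Cd8a or Cd8b1 in 711 (97.7%). Singly, Cd3e was found in 94.2%, Cd8a in 92.7%, Cd8b1 in 93.4% and Gzmk in 76.0% of the cells. Cd4 was found in 1 cell (0.137%), and Foxp3 of regulatory T cells in 0 of 728 (exact upper limit 0.505%). In the class CD4+, Cd8a or Cd8b1 RNA was found in 4.21% and Cd4 in 56.5% of cells. Of the 728 cells, 666 (91.5%) lay in the authors' cluster 2 and 62 in other clusters.

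The edge toward the class ILCs followed the surface tags. The lowest CD3 count of a young CD8+ cell was 45 tags and the highest of a young ILC was 43. In the aged well these were 5 and 4 tags. CD8a tags did not separate the classes in the same way: 47 of 175 aged ILCs and 6 of 155 young ILCs had at least as many CD8a tags as the lowest CD8+ cell of their well (15 tags in the aged and 43 in the young well). Of the 47, 43 were in the pool aged control 2, and 46 had CD3-complex RNA. These ILCs were counted neither as CD8+ nor removed from the ILCs. The CD8+ share was also taken with them counted, and RNA against ILCs also without aged control 2. Other ILC values below, by age, antibiotics or tag, include that pool.

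RNA of other cell types was also present in CD8+ pools, given here as the summed mean level of a marker list (lowest, median and highest pool, for 5 young and 6 aged pools of at least 10 CD8+ cells). B cell markers were at 0.667, 1.2 and 1.35 in young pools, with Cd79a and Ms4a1 at 0, and at 1.38, 30.8 and 73.6 in aged pools. Neutrophil markers were at 1.56, 1.93 and 113 in young pools and at 0.369, 0.499 and 0.613 in aged pools. Microglial markers were at 1.13, 2.22 and 3.88 against 2.72, 4.42 and 7.16, and monocyte markers, which include Ly6c2 and Plac8, at 6.77, 15.7 and 38.9 against 2.90, 5.12 and 6.98. The 8 markers of ILCs and NK cells were at 1.2, 2.59 and 4.89 in young and at 1.04, 1.33 and 2.3 in aged pools, and the 2 red cell markers at 0.824, 1.05 and 241 against 0.542, 0.685 and 10.8. The 5 markers of CD4 T cells were at 0.867, 1 and 1.26 in young and at 0.696, 0.808 and 0.978 in aged pools, with Cd4 at 0 in the young pools and Foxp3, of regulatory cells, at 0 in both wells. What part these levels have in the results below was not tested, except where values without the cells concerned are given.

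CD8+ cells made up a larger share of the cells in aged than in young brains. They were 2.40%, 0.658% and 1.40% of all cells in pools of young control mice and 2.57%, 1.68% and 1.13% where young mice had antibiotics. In aged pools they were 6.31%, 8.87% and 9.11% (control) and 13.2%, 7.94% and 12.6% (antibiotic). Every aged pool was above every young pool. The mean was 1.64% ± 0.738 (SD, n = 6 pools) in young and 9.67% ± 2.69 (SD, n = 6) in aged pools. The difference of 8.03 percentage points gave p = 0.005 in a two-sided exact permutation test within arms, the smallest p that test allows. In counts of all 10 classes tested together, edgeR's quasi-likelihood test gave a log2 change of 2.54 ± 0.34 (SE) with age (adjusted p = 3.07e-05). In the control arm alone it gave 2.41 ± 0.48 (adjusted p = 0.00184). A share among the cells recovered is not a number of cells per brain, and each class's share also depends on how many cells of the other classes were recovered.

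The rise was not shared by the 2 classes compared to the point of passing the test. The log2 change with age was 0.81 for CD4+ (edgeR adjusted p = 0.283) and 0.04 for ILCs (adjusted p = 0.933). Whether these changes differ from that of CD8+ cells was not tested. CD8+ cells were 66.0%, 55.6% and 54.8% of the CD8+ and CD4+ cells in young control pools, and 44.4%, 68.2% and 75% in young antibiotic pools. They were 86.2%, 75.6% and 85.8% in aged control and 89.1%, 68.8% and 87.0% in aged antibiotic pools. The difference between ages was 21.4 points (exact permutation within arms, p = 0.01), with aged antibiotic 2 below the highest young pool. As a share of cells other than microglia, CD8+ cells differed by 21.7 points between ages (exact permutation, p = 0.005).

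Antibiotics did not move the share of CD8+ cells beyond the spread between pools. The aged antibiotic pools averaged 11.2% ± 2.88 (SD, n = 3) and the aged control pools 8.10% ± 1.55, a difference of 3.14 points (exact permutation test, p = 0.3; the smallest p for 3 against 3 is 0.1). In edgeR the log2 change was 0.47 ± 0.44 (SE; adjusted p = 0.727). In young mice it was 0.21 ± 0.48 (adjusted p = 0.736), and the difference between the 2 changes was 0.25 ± 0.66 (adjusted p = 0.880). With the CD8a-tagged ILCs counted as CD8+, a count chosen after the values were seen, the difference in aged pools was 1.77 points (exact permutation, p = 0.6) and that between ages 8.67 points (p = 0.005).

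**Figure D1:**
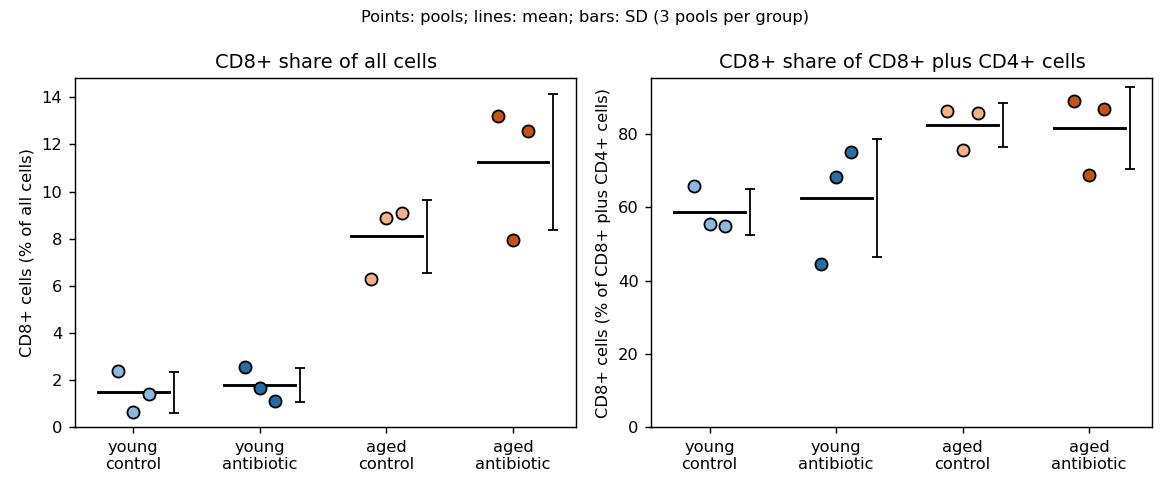
CD8+ cells as a percentage of all cells (left) and of CD8+ plus CD4+ cells (right) in each of the 12 pools, with the mean (line) and SD (bar) of the 3 pools of a group. On the left the aged pools lie between 6.31% and 13.2% and the young pools between 0.658% and 2.57%. On the right the lowest aged pool, at 68.8%, is below the highest young pool, at 75%.

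RNA was compared on the deposited corrected UMI values: each cell's counts after SCTransform adjusted them for sequencing depth. Values were averaged over the cells of a class in a pool, and differences are on the scale log2(mean + 0.05), which understates changes of genes with low values. Since the authors named the classes from these same cells, CD8+ against CD4+ cells and against ILCs is a description with no test. It counts the genes that were higher or lower in CD8+ cells in every pool with at least 10 cells of both classes.

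Against CD4+ cells, CD8+ cells were set apart by their coreceptor and by cytotoxic genes. In 8 pools (634 CD8+ and 188 CD4+ cells), 168 of 8769 genes (1.92%) were higher in CD8+ cells in every pool and 106 (1.21%) lower, and the median difference over all genes was 0.08. Cd8b1 averaged 6.19 ± 1.21 (SD, n = 8 pools) in CD8+ and 0.027 in CD4+ cells, a log2 difference of 6.47 ± 0.89 (SD). Cd8a averaged 3.89 ± 0.55 against 0.013, a difference of 6.03 ± 0.44. Of 19 cytotoxic genes, 9 were higher in every pool and 1, Srgn (serglycin, the granule proteoglycan), was lower, with a median difference of 1.11. Perforin (Prf1) averaged 0.653 ± 0.156 against 0.119, and Gzmk 2.10 ± 0.946 against 0.912 ± 0.814, a difference of 1.81 ± 1.51 (SD). Nkg7, a granule membrane protein, averaged 13.4 ± 1.52 against 5.09 ± 1.65, and the chemokine Ccl5 71.9 ± 20.5 against 25.6 ± 14.0. The receptors shared with natural killer cells went the same way: the log2 difference was 2.63 for Klrc1 (NKG2A) and for Cd160, 1.77 for Klrd1 (CD94) and 1.39 for Klrk1 (NKG2D).

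Among the 10 genes named as lower in CD8+ cells were, after Cd4, several that are known from helper cells, for which no list was fixed. Cd40lg, the ligand with which helper cells license B cells, averaged 0.031 in CD8+ and 0.941 in CD4+ cells, a log2 difference of -3.62. Tnfrsf4 (OX40) differed by -3.74, Tnfsf11 (RANKL) by -2.66, Tnfsf8 (CD30 ligand) by -1.79 and the transcription factor Maf by -1.95. The remaining T cell genes were alike or mixed: of 18 genes of the receptor complex, 5 were higher in every pool (Cd8b1, Cd8a, Cd3g, Cd3d and Cd3e) and 2 lower (Cd4 and Cd5). Of 14 tissue residency genes 1 was higher in every pool (the chemokine Xcl1) and 2 lower (Rgs2 and Itgb7), against 1.92% and 1.21% of all genes. Their median difference was 0.04, against 0.08 over all genes. Cxcr6 averaged 2.10 in CD8+ and 1.98 in CD4+ cells and Cd69 3.40 and 3.42. Of 16 immediate early genes 4 were lower in every pool (Fosb, Junb, Nr4a1 and Dusp1), with a median difference of -0.51.

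Against ILCs, CD8+ cells were set apart by the T cell receptor machinery and Gzmk rather than by cytotoxic genes in general. The class ILCs as the authors drew it carried RNA of natural killer cell receptors, with Ncr1 at 2.56 and Klrb1c at 2.32. Its cytotoxic levels are therefore those of this class and not of innate lymphoid cells without natural killer features. The authors' separate class NKCells was not compared. In 10 pools (613 CD8+ cells and 300 ILCs), 162 of 8908 genes (1.82%) were higher in every pool and 146 (1.64%) lower, around a median of 0.03. Of 17 receptor complex genes 14 were higher in every pool. Cd3e averaged 3.27 ± 0.59 (SD, n = 10 pools) against 0.319 ± 0.61, and Trac, the constant region of the receptor's alpha chain, 3.60 ± 0.48 against 0.536 ± 0.79. Gzmk averaged 1.87 ± 1.06 in CD8+ cells and 0.132 ± 0.386 in ILCs, a log2 difference of 4.22 ± 1.98 (SD). Aged control 2 carried these ILC means: without it Gzmk averaged 0.00988 in ILCs, Cd3e 0.131 and Trac 0.295. Gzmk was the only one of 19 cytotoxic genes higher in every pool. The other granzymes had lower means in CD8+ cells: Gzma averaged 2.34 against 19.1 and Gzmb 0.840 against 4.2, each lower in 9 of 10 pools. Prf1 averaged 0.580 against 2.11, also lower in 9 of 10.

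Ncr1 (NKp46), a receptor of natural killer cells, averaged 0.068 in CD8+ cells and 2.56 in ILCs, a log2 difference of -4.80 ± 1.07 (SD), and Klrb1c (NK1.1) differed by -3.86. Fcer1g, the signalling chain of several Fc and NK receptors, differed by -3.02. Of 24 interferon-stimulated genes 6 were higher in CD8+ cells in every pool, with a median difference of 0.91, among them the immunoproteasome subunits Psmb8 (0.63) and Psmb9 (1.07). Without aged control 2, 185 genes were higher and 160 lower in every one of 9 pools, Cd8a differed by 5.11 in place of 4.69 and Gzmk by 4.56 in place of 4.22. The same numbers of receptor complex (14) and cytotoxic genes (1 higher, 2 lower) went one way in every pool.

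Since the edges of the classes followed the antibody tags, tag levels between classes only describe how the classes were drawn. CD8a made up 130, 166 and 194 (lowest, median and highest of 8 pools) of 1000 tags in CD8+ cells and 1.12, 1.78 and 3.13 in CD4+ cells. CD4 made up 1.14, 1.40 and 1.70 against 134, 195 and 223. Of 34 antibodies, 2 (5.88%), CD8a and the pan-leukocyte marker CD45, were higher in CD8+ cells in every pool and 1 (2.94%), CD4, lower. CD3 was lower in CD8+ than in CD4+ cells in 7 of 8 pools, with medians of 27.2 and 36.3.

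Compared with ILCs, 3 antibodies (8.82%) were higher in every one of 10 pools: CD3, CD8a and CD86, a costimulatory ligand. CD86 was at 14.8, 28.1 and 34.5 tags per 1000 in CD8+ cells and 1.40, 4.74 and 16.2 in ILCs. The highest CD8a share of the ILCs, 107, was that of aged control 2, and the median was 6.12. Another 6 antibodies (17.6%) were lower in every pool. CD117-c-kit, the stem cell factor receptor, was at 0.654 in CD8+ cells and 7.76 in ILCs by the median, CD25, the IL-2 receptor alpha chain, at 0.579 and 4.78, and CD11c, an integrin, at 5.52 and 17.3. NK1.1 was at 24.6 and 42.2, PD-L1 at 5.80 and 11 and Siglec-H at 1.88 and 2.68.

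**Figure D2:**
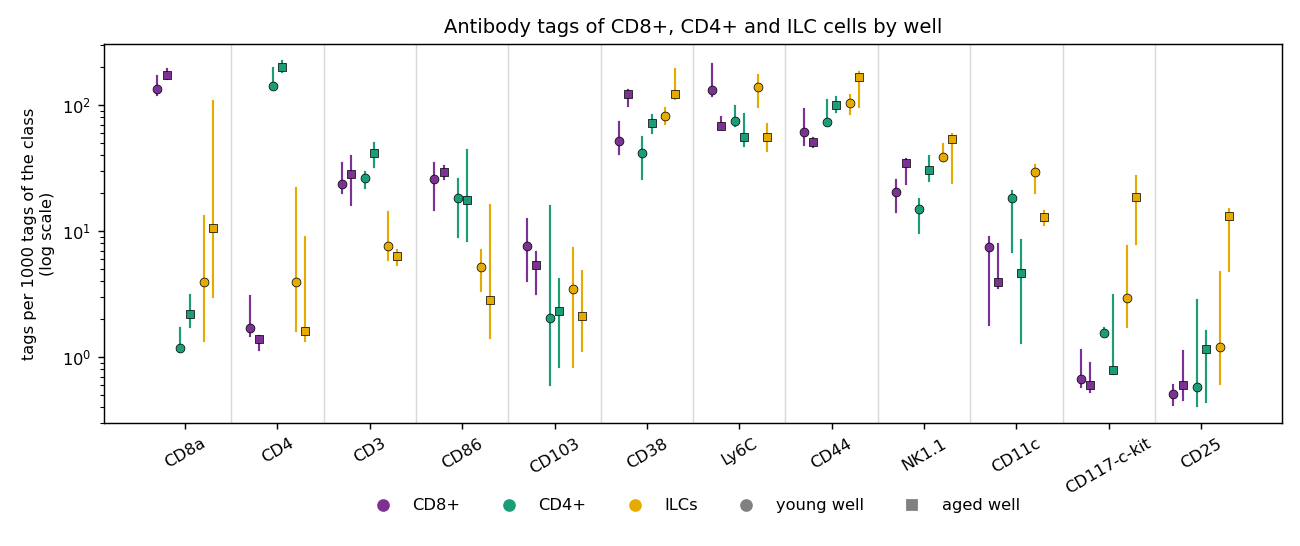
Tags per 1000 tags of a class (log axis) for 12 antibodies in CD8+ cells, CD4+ cells and ILCs. A marker is the median and a line the range over pools with at least 10 cells, circles for the young and squares for the aged well. CD8a, at a median of 166 against 1.78 over all pools, and CD4 separate CD8+ from CD4+ cells, while CD3, CD117-c-kit and CD25 separate them from ILCs.

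With age, genes of naive cells were lower in CD8+ cells (8 of 16 tested), and single genes, among them Tox, Maf and Dusp2, were higher. The cytotoxic genes as a list did not go one way, with 2 of 19 called higher around a median change of 0.04, and 1 of 13 checkpoint genes was called. The comparison set 6 aged against 5 young pools. Young control 2 was left out because it had 5 CD8+ cells, under the minimum of 10. It used limma across all genes with a mean of at least 0.05, calling genes at an adjusted p under 0.05 (Benjamini-Hochberg). Of 8287 genes 148 (1.79%) were called, 61 (0.736%) higher and 87 (1.05%) lower in aged pools, and 1257 had an unadjusted p under 0.05. The median change over all genes was 0.01. The count depended on single pools: it was 80 without aged control 1, 74 without aged control 2 and 50 without aged control 3, 66, 44 and 54 without aged antibiotic 1, 2 and 3, and 311 without young antibiotic 2.

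Genes of naive and recirculating T cells made the clearest group, with 8 of 16 lower in aged pools and 0 higher, against 1.05% of all genes lower. The median change of the 16 was -1.16, and 15 had a change below 0.

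Ccr7, the receptor for lymph node chemokines, was at 1.84 and 1 in young control and 0.8, 0.333 and 1.06 in young antibiotic pools, and at 0.041, 0.081 and 0.237 in aged pools. It fell by 2.85 ± 0.30 on the log2 scale (limma adjusted p = 0.000277). S1pr1, which guides cells out of lymphoid tissue, was at 1.1, 0.765, 0.35, 0.533 and 0.833 in the same young pools and at 0.0182, 0.111 and 0.172 in aged pools. It fell by 2.37 ± 0.29 (adjusted p = 0.00102). For both genes the young and aged pools did not overlap. Over all genes tested, 2.84% had aged pools below the young pools within each arm and 1.69% above. Other members called included Dapl1 (-3.35 ± 0.35, adjusted p = 0.000277), the transcription factors Lef1 (-1.72), Satb1 (-1.62) and Klf3 (-1.60), and S1pr4 (-1.20, adjusted p = 0.0337). Lef1 was at 0.4 to 1.16 in young and 0.124 to 0.273 in aged pools.

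Not all naive and memory genes passed: Tcf7, a partner of Lef1 that is kept in memory cells, changed by -0.92 ± 0.30 (limma adjusted p = 0.14), Klf2 by -1.12 (0.117) and the IL-7 receptor Il7r by -0.43 (0.445). Ccr7, S1pr1, Dapl1, Lef1, Satb1 and Klf3 stayed called in each of the 11 fits that left out a pool, and S1pr4 in 4 of them.

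Among effector genes Gzmk stood out by level. In young pools its mean was 0.935 and 1.71 (control) and 0.5, 1.6 and 0.111 (antibiotic), and it was 2.54, 2.72 and 3.03 (lowest, median and highest) in aged ones. The aged pools were all above the young ones and closer to each other. The log2 change was 1.74 ± 0.40 (SE; limma adjusted p = 0.0411). The call was not stable: it passed in 2 of the 11 fits without a pool, those without young antibiotic 2 (adjusted p = 0.00065) or 3 (0.0154). Tnfsf10 (TRAIL) was the other cytotoxic gene called of 19, at 1.08 ± 0.25 (adjusted p = 0.0382), and it too held in 2 of 11 fits.

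The rest of the cytotoxic genes did not pass. Gzmb was at 0.278 to 2.16 in young and 0.656 to 1.57 in aged pools, a change of 0.11 (limma adjusted p = 0.895). Prf1 changed by 0.15 (0.776), Nkg7 by 0.07 (0.848), Ifng by 0.60 (0.498) and Ccl5 by 0.61 (0.0793). Gzma had 16.2 in young control 1 and 0 to 4.35 in the other young pools, and its change of -2.49 did not pass (0.133). The median change of the 19 was 0.04.

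Tox, a transcription factor of chronically stimulated and exhausted T cells, was at 0.548, 0.529, 0.85, 0.667 and 0.444 in young pools and at 1.19, 1.35 and 1.41 in aged pools. It rose by 1.12 ± 0.15 (limma adjusted p = 0.00162). Of the 13 checkpoint genes tested it was the 1 called. Pdcd1 (PD-1) was at 0 to 0.533 in young and 0.409 to 0.946 in aged pools, a change of 1.69 ± 0.47 that missed the threshold (0.0927). Lag3 changed by 0.39 (0.787) and Ctla4 by 0.62 (0.0872).

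Maf, a transcription factor that promotes IL-10 in T cells, had the largest rise among the T cell genes named here. It was at 0.161, 0.176, 0.1, 0 and 0.111 in young pools and at 0.475, 0.851 and 1.03 in aged pools, with no overlap. The log2 change was 2.48 ± 0.30 (limma adjusted p = 0.00102). Dusp2, a phosphatase induced by receptor signalling, rose by 1.01 ± 0.13 (0.00111), from 2.94 to 6.93 in young to 8.14 to 10.7 in aged pools. It was the 1 gene called of 16 immediate early genes.

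Other genes higher in aged CD8+ cells were Cdh1 (E-cadherin), at 0 to 0.15 in young and 0.214 to 0.336 in aged pools (1.95 ± 0.37; limma adjusted p = 0.0159), and Ccl12, a monocyte chemokine, at 0 in 4 of 5 young pools and 0.0984 to 0.496 in aged pools (2.43 ± 0.39; 0.00489). The call for Ccl12 held in 11 of the 11 fits without a pool and that for Cdh1 in 6. Microglial markers in CD8+ pools were also higher in the aged well, at medians of 4.42 against 2.22. Their part in the Ccl12 values was not tested. Gadd45g, a stress-induced growth arrest gene, was listed at 0 in all young pools and at 0.0645 to 0.536 in aged pools (0.0208; called in 7 of 11 fits). The interferon-stimulated genes had 1 of 24 called, Usp18, which removes ISG15 from proteins (1.36 ± 0.32; 0.047; called in 4 of 11 fits), with a median of 0.20. Casp1, the inflammasome caspase, was named after its values were seen: it was at 0.0667 to 0.176 in young and 0.364 to 0.589 in aged pools (1.59 ± 0.22; 0.00162).

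Tissue residency genes had 0 of 14 called in either direction by limma (6 at an unadjusted p under 0.05), around a median change of 0.20. Cxcr6 was at 1.17 to 2.87 in young and 1.61 to 3.05 in aged pools (0.17; limma adjusted p = 0.767), Cd69 at 2.52 to 4.35 and 2.75 to 4.27 (0.15; 0.703) and Itgae, which encodes CD103, at 0.118 to 0.194 and 0.116 to 0.226 (0.03; 0.968). The 6 of small unadjusted p were Itgb7 (-0.57; adjusted p = 0.0606), Itga4 (0.40; 0.0760), Itga1, the collagen-binding CD49a (0.85; 0.113), Cd38 (0.96; 0.117), Bhlhe40 (0.96; 0.212) and Prdm1, which encodes Blimp-1 (0.61; 0.31). Itgb7, at 1.2 to 1.75 in young and 0.696 to 1.16 in aged pools, and Bhlhe40, at 0.167 to 1.33 and 1.43 to 2.02, lay apart. Xcl1 RNA was found in 35.5% to 55.6% of young and 57.5% to 82.1% of aged CD8+ cells (0.317% and 0.780% of microglia), but its mean, at 1.39 to 13.3 and 1.77 to 2.72, changed by -0.09 (0.941). Itga1 RNA was found in 22.4% ± 6.96 (SD, n = 5 pools) of young and 41.3% ± 8.35 (n = 6) of aged CD8+ cells (1.25% and 1.03% of microglia). The receptor complex also had 0 of 17 called (3 unadjusted; median -0.04), with Cd8a at 0.19 (0.692) and Cd3e at 0.36 (0.14). Proliferation genes (0 of 12, 4 unadjusted; median -0.60) and MHC class I genes (0 of 11, 1 unadjusted; median 0.11) gave no call either.

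**Figure D3:**
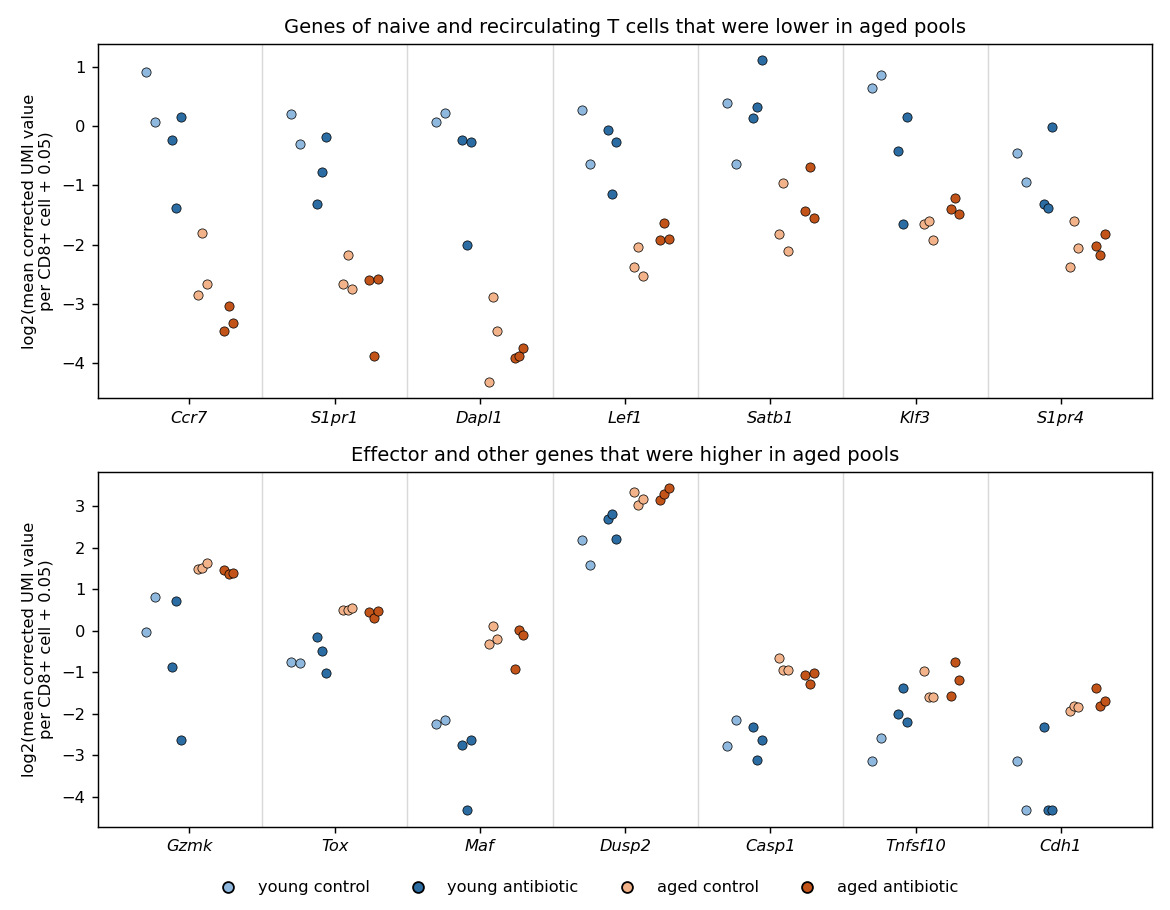
Mean corrected UMI value per CD8+ cell on the log2(mean + 0.05) scale in each of 11 pools, for 7 naive-cell genes (top) and 7 genes higher in aged pools (bottom), coloured by group. Ccr7, S1pr1, Dapl1, Lef1 and Satb1 separate young from aged pools without overlap, as do Gzmk, Tox, Maf, Dusp2, Casp1 and Cdh1 in the other direction.

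Counting cells rather than averaging values, cells with naive genes and no Gzmk were few in aged pools (these shares describe the genes above and were not tested). The share of CD8+ cells with Gzmk RNA was 35.5% and 52.9% in young control and 25%, 53.3% and 11.1% in young antibiotic pools, and 78.6% to 90.9% in aged pools. Means were 35.6% ± 18.2 (SD, n = 5) and 82.5% ± 4.65 (n = 6). In microglia, which do not make granzyme K, Gzmk was found in 0 of 5044 young cells (approximate upper limit 0.0595%) and in 0.436% of aged cells. The median raw UMIs per cell were 6809 and 7118 in young and aged microglia and 8287 and 6927.5 in CD8+ cells. Cells with RNA of Ccr7, Lef1 or S1pr1 and without Gzmk were 40.9% ± 18 of CD8+ cells in young and 4.17% ± 1.61 in aged pools. They ranged from 20% to 66.7% in young and from 1.79% to 5.45% in aged pools. With or without Gzmk, cells with any of the 3 genes were 35.3% to 66.7% in young and 18.2% to 33.3% in aged pools. Cells with Gzmk and none of these 3 genes were 22.8% ± 18.4 in young and 61.5% ± 7.76 in aged pools, and cells with both 12.8% ± 10.2 and 20.9% ± 4.36.

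Of the 3 naive genes, Ccr7 was found in 27.4% of young and 4.82% of aged CD8+ cells (microglia 0.297% and 0.275%). Lef1 was found in 47.2% and 16.4% (microglia 0.238% and 0.505%). S1pr1 was found in 30.2% and 7.56%, against 17.4% and 17.3% of microglia, so its aged share is not above that background class. Tox was found in 34.9% of young and 57.6% of aged CD8+ cells and in 0.0397% and 0.184% of microglia. Median raw UMIs per cell were higher in young than in aged CD8+ cells, the direction of the naive genes and the opposite of that of Gzmk and Tox. The part of depth in these shares was not tested.

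When only cells without RNA of Ccr7, Lef1 and S1pr1 were compared, a choice made after the values were seen, 88 genes were called by limma, 70 higher and 18 lower in aged pools. Maf (2.63; adjusted p = 0.00318), Dusp2 (0.86; 0.00585) and Cdh1 (2.16; 0.0353) were still called. Gzmk (1.93; limma adjusted p = 0.169) and Tox (0.77; 0.0977) were not. The fit took pools of at least 7 such cells and so also left out young antibiotic 3, where 12 of 18 CD8+ cells had RNA of these genes. It thus had fewer young pools and fewer cells. The change of Gzmk was no smaller than over all CD8+ cells, and that of Tox was smaller. A lost call here does not show that the difference went with the cells removed.

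**Figure D4:**
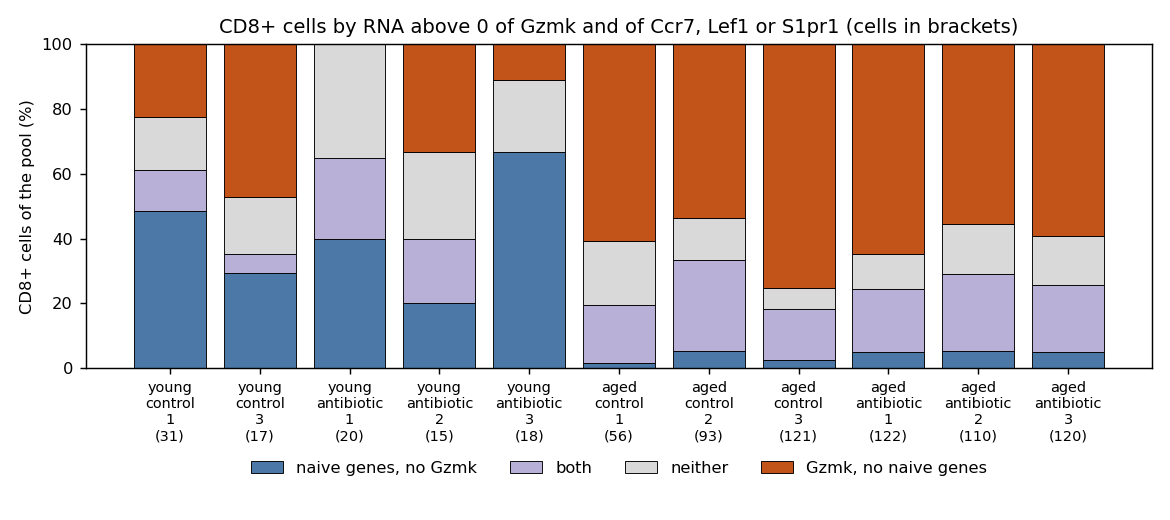
Share of CD8+ cells (%) in each of 11 pools with RNA above 0 of Ccr7, Lef1 or S1pr1 but not Gzmk (blue), of both (lilac), of neither (grey) and of Gzmk alone (orange), with the number of cells under each bar. Blue takes 20% to 66.7% of young bars and 1.79% to 5.45% of aged bars.

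Among the genes named for age, the largest rise (Igkc) and the largest fall (S100a8) were in genes of other cell types. Dapl1, at -3.35, was close to S100a8. Igkc, the immunoglobulin kappa constant region, was at 0.05 to 0.647 in young and at 0.857, 22.9 and 59.4 (lowest, median and highest) in aged CD8+ pools, a log2 change of 5.76 ± 0.79 (limma adjusted p = 0.00162). Of all Igkc in the class, 95.4% was in 7 aged cells with a value of 846 or more, all in cluster 5 and with 13571 to 67306 raw UMIs. In CD8+ cells of cluster 2 alone the change was 2.38 (adjusted p = 0.000662). Igkc was above 0 in 6.82% of young and 50.3% of aged microglia, and in 10.4% and 57.1% of CD8+ cells. Jchain, which joins IgA and IgM units, rose by 3.29 ± 0.47 (0.00226), from 0 in 4 of 5 young pools to 0.0179 to 3.69 in aged pools.

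S100a8, a neutrophil calcium-binding protein, fell by 3.40 ± 0.69 (limma adjusted p = 0.022). It was at 35.8 in young control 3, 0.548 to 0.867 in the other 4 young pools and 0.0902 to 0.183 in aged pools. Without young control 3 the change was -1.93 (0.00232). S100a8 was above 0 in 39.1% of young and 14.1% of aged microglia and in 42.5% and 11.6% of CD8+ cells. S100a9 (-2.95; 0.0382) and Camp (-2.86; 0.0316), of the same cells, also had their highest value in young control 3, at 56.1 and 10.1. Without that pool they changed by -1.54 (0.0113) and -1.64 (0.0447). Of the 11 fits without a pool, the call for S100a8 held in 6 and those for S100a9 and Camp in 4 each.

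Several other genes were noticed after the values were seen, with no list fixed for them. Actb, a cytoplasmic actin, was at 45.4 to 55.7 in young and 34.7 to 40.2 in aged pools (-0.41 ± 0.06; limma adjusted p = 0.00162). Coro1a (-0.43; 0.00474), Cfl1 (-0.43; 0.0112) and Pfn1 (-0.39; 0.0112), which bind actin, were also called lower. Of ribosomal genes Rpl38 (0.39; 0.00474) was called higher and Rplp0 (-0.43; 0.00899) lower. Ly6c2 was at 2.65 to 9.2 in young and 1.2 to 3.18 in aged pools (-1.33 ± 0.20; 0.00281), and no aged pool reached a young pool of its own arm. Tcrg-C2, a constant region of the T cell receptor gamma locus, was at 0.0588 to 1.07 in young and 0.845 to 1.42 in aged pools (2.10 ± 0.27; 0.00111). Genes with near-identical copies, such as Tcrg-C2, Ly6c2 and the ribosomal genes, can share reads with their copies and their values are uncertain.

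Set beside the other lymphocytes of the same pools, the changes in CD8+ cells were not all of a kind (values without a test; CD4+ over 3 young and 5 aged, ILCs over 6 young and 5 aged pools). Maf changed by 0.26 between ages in CD4+ cells and by -0.84 in ILCs, against 2.58 in CD8+ cells when pools are averaged without regard to arm. Tox changed by 0.63 in CD4+ cells and 0.05 in ILCs, and Dusp2 by 0.51 and -0.69. Gzmk was at 0.0892 ± 0.0941 (SD, n = 3) in young and 1.41 ± 0.585 (n = 5) in aged CD4+ cells, a log2 difference of 3.54, and differed by 0.13 in ILCs. Ccr7 differed by -1.64 and Lef1 by -1.19 with age in CD4+ cells. Igkc was 3.13 higher in aged CD4+ cells and 2.66 in microglia, S100a8 -2.12 and -2.39, and Actb differed by -0.73 in CD4+ cells.

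In control mice alone, aged against young, limma called 20 genes (0.241%), 11 higher and 9 lower, and 945 had an unadjusted p under 0.05. Among those higher were Tcrg-C2 (3.25; limma adjusted p = 0.00572), Trgv2 (2.82; 0.0131), Pml (2.39; 0.0471), Ier5l (2.20; 0.0276), Prkar2a (1.97; 0.0471) and Prkcz (1.55; 0.0471). Tox and Dusp2 were also called higher. Among those lower were Dapl1 (-3.70; limma adjusted p = 0.0131), Ccr7 (-2.93; 0.0152), S1pr1 (-2.48; 0.0269), Klf3 (-2.48; 0.0159) and Lef1 (-2.13; 0.0225). These 5 are on the list of naive and memory genes. The comparison used 2 young control pools of 31 and 17 cells. Its count was 0 without aged control 1, 6 and 4 without aged control 2 and 3, 10 without young control 3 and 176 without young control 1. It was 61 and 63 without young antibiotic 2 and 3, and 13 and 12 without aged antibiotic 1 and 2.

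On the surface, 9 of 34 antibodies (26.5%) differed between ages in CD8+ cells by edgeR's quasi-likelihood test on summed tags, 4 higher (11.8%) and 5 lower (14.7%), with 13 at an unadjusted p under 0.05. CD38, an ectoenzyme that consumes NAD and marks activated T cells, was at 46.8 and 66.8 tags per 1000 in young control 1 and 3 and at 51.7, 73.0 and 41.2 in young antibiotic pools. Aged pools had 97.6 to 133, all above the young. The log2 change was 0.90 ± 0.15 (SE; adjusted p = 0.000542). CD38 was also higher in the aged well in both classes compared, without a test. It was at 26.1 to 55.7 in 3 young and 60.1 to 83.8 in 5 aged pools of CD4+ cells. In ILCs it was at 70.5 to 94.7 in 5 young and 111 to 192 in 5 aged pools. Its RNA, Cd38, was at 0.05 to 0.2 in young and 0.14 to 0.3 in aged pools (0.96 ± 0.29; limma adjusted p = 0.117).

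Ly6C, which marks memory and interferon-exposed CD8 T cells, was at 132, 120, 131, 117 and 211 in young pools and at 65.4 to 79.8 in aged pools, a fall of 1.18 ± 0.20 (edgeR adjusted p = 0.000586). In ILCs it was at 96.4 to 174 in young and 43.3 to 70.5 in aged pools, and in CD4+ cells at 68.1 to 97.5 and 47.2 to 84.4. By their medians both tags differed in the same direction in all 3 classes, and whether the differences are unequal was not tested. The chemokine receptor CCR2-CD192 was at 0.404 to 0.655 in young and 0.207 to 0.373 in aged pools (-0.95 ± 0.17; 0.000943). CD24 fell by 1.13 ± 0.29 (0.0119), with overlap: it was at 52.8, 32.8, 13.9, 46.9 and 21.9 in young and 11.6 to 23.4 in aged pools. CD4 tags, at 1.48 to 3.03 in young and 1.14 to 1.46 in aged pools, changed by -0.73 (edgeR adjusted p = 0.0123) and Ly6G by -0.40 (0.0327). The calls for CCR2-CD192, CD4 and Ly6G rest on few tags per cell. Over the CD8+ cells of 5 aged pools CCR2-CD192 had 122 tags and Ly6G 430. The median CD4 count was 0 tags in an aged and 5.5 in a young CD8+ cell. What part background and the lower tag depth of the aged well have in these 3 calls was not tested.

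The other 3 calls, all higher, rest on antibodies that gave almost no tags in the young well. CD335, CXCR4 and KLRG1 were listed at 0 in all young CD8+ cells and had 226, 37 and 55 tags in the aged ones. Over all 6526 cells of a well they had 23, 0 and 3 tags in the young and 2124, 486 and 632 in the aged well. The remaining 31 antibodies had 6 calls, of which 1, CD38, was higher. Surface markers that did not pass were CD44 (-0.52; edgeR adjusted p = 0.102), CD103 (-0.32; 0.504), PD-1 (0.32; 0.604), CD8a (0.12; 0.451) and CD3 (-0.08; 0.782).

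In aged mice, 10 genes differed with antibiotics in CD8+ cells. Of the 5 lower, 4 encode chaperones or co-chaperones, and of the 5 higher, 2 encode cold-inducible RNA-binding proteins. No list of either kind was fixed, and other chaperone genes were not called. limma called 10 of 8265 genes (0.121%) between 3 antibiotic and 3 control pools, 5 higher and 5 lower (0.0605% each), with 601 at an unadjusted p under 0.05. Hsph1, an Hsp110 chaperone that recharges Hsp70, was at 0.625, 0.720 and 0.587 in aged control and 0.148, 0.0727 and 0.150 in aged antibiotic pools. It fell by 2.03 ± 0.21 on the log2 scale (adjusted p = 0.000781). Chordc1, a co-chaperone of Hsp90, was at 0.5, 0.602 and 0.76 against 0.23, 0.173 and 0.317 (-1.22 ± 0.21; 0.0285). Stip1, which links Hsp70 to Hsp90, was at 0.464, 0.559 and 0.554 against 0.23, 0.209 and 0.175 (-1.18 ± 0.17; 0.00877). In all of these the control and antibiotic pools lay apart, a condition for naming them. Over all genes tested, 5.60% lay apart with antibiotic pools lower and 7.15% with antibiotic pools higher.

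Dnaja1, an Hsp40 that works with Hsp70, was at 3.75, 3.97 and 3.16 in control and 1.75, 1.81 and 2.26 in antibiotic pools (-0.89 ± 0.12; limma adjusted p = 0.00455). Dynll1, a dynein light chain and no chaperone, was at 2.07, 1.89 and 1.94 against 0.902, 0.818 and 1.14 (-1.02 ± 0.13; 0.00406). The main inducible and constitutive heat shock genes were not called: Hspa8 changed by -0.41 (0.0653), Hsp90aa1 by -0.66 (0.0646), Hsp90ab1 by -0.32 (0.247), Dnajb1 by -0.36 (0.696) and Hspa1a by 0.95 (0.662). These 5 were picked after the values were seen.

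Cirbp, the cold-inducible RNA-binding protein, was at 0.946, 0.946 and 1.1 in aged control and 1.94, 2.43 and 2.14 in aged antibiotic pools (1.08 ± 0.12; limma adjusted p = 0.00124). Rbm3, its relative, was at 5.23, 4.75 and 4.93 against 8.03, 8.22 and 7.04 (0.64 ± 0.09; 0.00455). Txnip, an inhibitor of thioredoxin and glucose uptake, was at 2.84, 2.28 and 2.89 against 4.17, 4.70 and 4.37 (0.72 ± 0.11; 0.00877). Every antibiotic pool was above every control pool for these genes, again a condition for naming them. Zc3h6 (1.2 ± 0.21; 0.0413) and Jchain (3.36 ± 0.55; 0.0205) were the other genes called higher. Jchain was at 0.0179, 0.108 and 0.43 in control and 3.69, 1.61 and 0.842 in antibiotic pools, but with means of log values per cell it changed by -0.045 (0.935).

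The calls for Hsph1 and Cirbp held in each of 6 fits that left out a pool. Those for Dnaja1, Dynll1, Rbm3 and Txnip held in 5, those for Stip1 and Jchain in 3, that for Chordc1 in 2 and that for Zc3h6 in 1. The count was 18 without aged control 1, 6 without aged control 2 and 2 without aged antibiotic 2. When young pools shared in the estimate of the spread, limma called 1 gene, Cirbp (adjusted p = 0.0448), with Hsph1 at 0.0651. In CD8+ cells of cluster 2 alone Hsph1 changed by -1.94 (2.56e-05) and Cirbp by 1.1 (4.87e-05).

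Chaperone genes are textbook targets of heat shock factors, which bind inverted repeats of nGAAn. Because Hsph1 and Chordc1 were the genes called here whose promoter windows held the most such pairs, their windows are shown 5′ to 3′ on the coding strand, from 250 bases before to 50 after the start in RefSeq (build GRCm38.p6), with matches in capitals. Hsph1 is on the minus strand of chr5:149636266-149636565 and Chordc1 on the plus strand of chr9:18292017-18292316.
Hsph1: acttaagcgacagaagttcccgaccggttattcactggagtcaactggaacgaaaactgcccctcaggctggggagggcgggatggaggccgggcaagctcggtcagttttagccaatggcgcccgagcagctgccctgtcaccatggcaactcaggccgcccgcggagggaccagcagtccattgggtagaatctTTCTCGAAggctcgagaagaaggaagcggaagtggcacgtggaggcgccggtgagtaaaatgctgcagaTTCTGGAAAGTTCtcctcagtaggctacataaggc
Chordc1: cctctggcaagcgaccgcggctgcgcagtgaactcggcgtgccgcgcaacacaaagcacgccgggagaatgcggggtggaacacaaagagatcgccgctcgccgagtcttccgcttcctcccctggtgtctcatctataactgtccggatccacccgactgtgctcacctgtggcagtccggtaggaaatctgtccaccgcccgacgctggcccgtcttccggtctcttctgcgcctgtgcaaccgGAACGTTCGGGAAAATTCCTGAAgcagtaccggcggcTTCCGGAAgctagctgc
The capitals mark GAANNTTC or TTCNNGAA, which are their own complements, so both strands are covered. Overlapping matches run together, and longer arrays of the form GAANNTTCNNGAA or TTCNNGAANNTTC hold 2 such pairs. Hsph1 had 2 windows, and the one shown, chosen for the most matches, held 3 pairs with 1 array. The single Chordc1 window held 5 pairs with 3 arrays. Of 32851 windows of the same length 15.1% held a pair and 0.603% an array. Counted by gene over any of its windows, these were 17.0% and 0.662% of 27025 genes. Of the other called genes Dnaja1 held 1 pair and no array, and Stip1, Dynll1, Cirbp, Txnip, Zc3h6 and Jchain held no match in these windows. Rbm3 was not searched. A match says only that these letters are present.

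The same genes moved in other classes of the aged pools, given without a test. Hsph1 was lower with antibiotics in all 9 classes with enough cells, from -0.67 in microglia to -2.54 in CD4+ cells, and Dynll1 in all 9, from -0.54 to -1.40. Rbm3 was higher in all 9, by 0.09 to 0.82, and Zc3h6 by 0.61 to 1.65. Cirbp was higher in 8 of 9, by 0.88 in microglia and 1.01 in CD4+ cells, and differed by -0.27 in the class Ly6C+Ly6G+. Dnaja1 and Chordc1 differed by -0.90 and -1.41 in CD4+ cells and by 0.00 and 0.02 in ILCs. Jchain differed by -0.21 in CD4+ cells and -0.04 in microglia. What moved these genes between the pools was not tested.

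**Figure D5:**
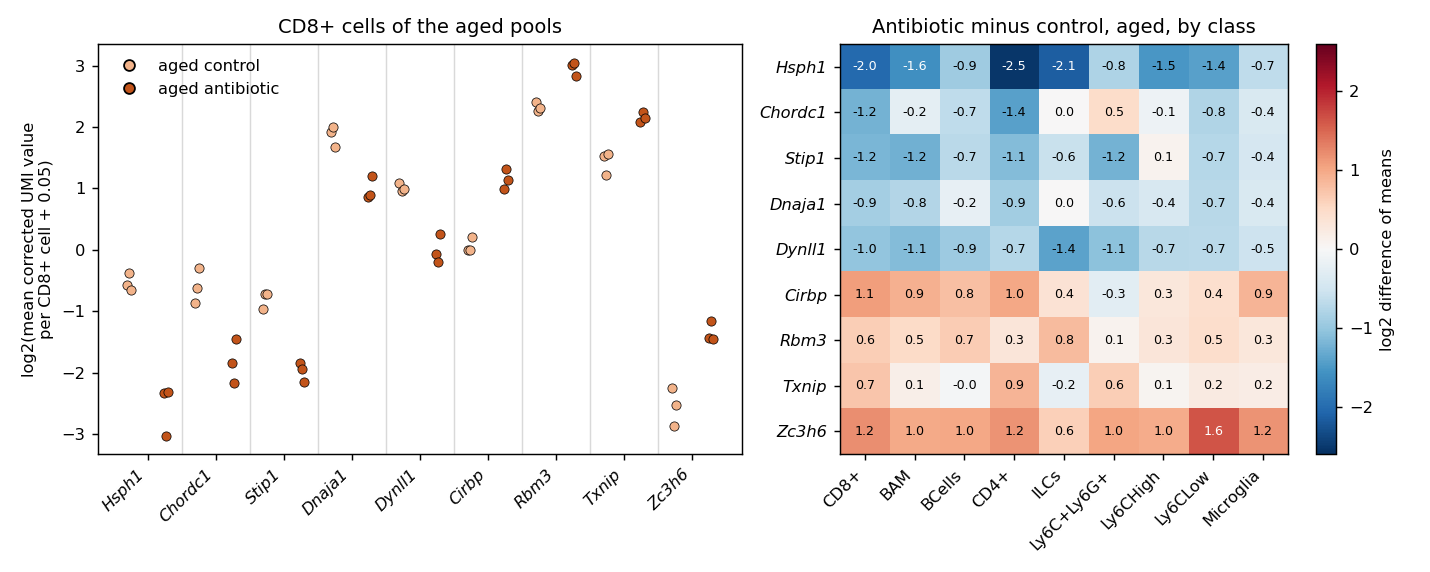
Left, mean corrected UMI value per CD8+ cell on the log2(mean + 0.05) scale in 3 aged control and 3 aged antibiotic pools for 9 of the 10 genes called. Right, antibiotic minus control in aged pools on the same scale for 9 classes, blue lower and red higher. Hsph1 is blue in every class, from -0.67 to -2.54, and Cirbp is red in 8 of 9.

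In the lists fixed for this work no gene was called between aged antibiotic and aged control CD8+ cells: 0 of 18 cytotoxic, 0 of 14 residency, 0 of 12 checkpoint, 0 of 13 naive and 0 of 24 interferon-stimulated genes by limma. At an unadjusted p under 0.05 there were 6, 2, 0, 2 and 2 of them, and the lists had medians of 0.06, -0.02, 0.18, 0.02 and -0.05 against 0.03 over all genes. Of 34 antibodies 0 were called by edgeR and 0 by DESeq2, with 3 at an unadjusted p under 0.05 in edgeR and a lowest adjusted p of 0.368.

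In young mice, 12 of 8287 genes (0.145%) were called between 3 antibiotic and 2 control pools, 7 higher (0.0845%) and 5 lower (0.0603%), while 1439 had an unadjusted p under 0.05 and the median over all genes was 0.13. Ccl5 was at 96.5 and 68.6 in young control 1 and 3 and at 28.8, 47.7 and 20.1 in the antibiotic pools (-1.43; limma adjusted p = 0.039). Itga4, the integrin alpha-4 chain by which lymphocytes enter the brain, was at 2.29 and 2.94 against 1, 1.2 and 1.06 (-1.22; 0.0116). Nr4a1, an early gene of receptor signalling, was at 0.548 and 0.529 against 1.35, 1.2 and 2.5 (1.48; 0.0493). In each of these the control and antibiotic pools lay apart, as in all 12 calls. Over all genes tested, 14.9% lay apart with antibiotic pools higher and 6.56% with antibiotic pools lower.

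Metrnl (2.71; limma adjusted p = 0.0217), Mapk9 (2.32; 0.0380), Prkar2a (2.23; 0.0380), Tcrg-C2 (2.21; 0.0410) and Acadl (1.72; 0.0380) were higher and Mxd4 lower (-1.30; 0.0410) in antibiotic pools. Tcrg-C2 and Prkar2a were also called higher in aged than in young control mice (3.25 and 1.97). Both comparisons use the same 2 young control pools, so these calls share a baseline. Bdh1 was listed at 0 in the young control pools, and Anxa3 and Sfn in the young antibiotic pools. These calls were the least stable of the study's comparisons: 0 remained when the 5-cell pool young control 2 was included and 1, Ccl5 (adjusted p = 0.0307), when pools were weighted by cell number. Leaving out 1 pool gave 422 without young control 1 and 3 without young control 3, 46, 278 and 136 without young antibiotic 1, 2 and 3, and 2 or 3 without any aged pool. Of the lists, the interferon-stimulated genes had a median of 0.61 and 20 of 24 members above 0, and the cytotoxic genes a median of -0.36 and 11 of 19 below 0. In the former 0 were called by limma (10 unadjusted) and in the latter 1, Ccl5 (12 unadjusted). Among antibodies, 2 of 34 (5.88%) were called by edgeR: CD11b, at 28.9 and 22.8 against 71.9, 60.1 and 62.4 tags per 1000 (1.57 ± 0.40; adjusted p = 0.0418), and CD172a-SIRPa (1.24 ± 0.32; 0.0418). Both are proteins of myeloid cells, CD11b also of some effector T cells.

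None of the 10 genes called in aged mice was called in young mice. Hsph1 changed by 0.06 with antibiotics (limma adjusted p = 0.958), Stip1 by 0.59 (0.267), Cirbp by -0.01 (0.983), Txnip by -0.73 (0.118) and Dnaja1 by 0.02. Rbm3 was at 5.87 and 5.24 in young control and 10.3, 9.2 and 7.83 in young antibiotic pools (0.70; 0.0515). The test of the difference itself, aged minus young antibiotic effect, called 0 of 8287 genes with limma (713 at an unadjusted p under 0.05; lowest adjusted p 0.338). The genes of smallest p were Itga4 (1.19), Anxa3, Stip1 (-1.76) and Hsp90ab1 (-0.77), all at an adjusted p of 0.338. So the effects at the 2 ages were not shown to differ.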

How the data were processed

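Mouse brain immune cells were profiled by CITE-seq: RNA, 34 antibodies and hashtags per cell. The deposited RNA values are corrected UMI values of SCTransform per cell, a depth-adjusted score rather than raw counts. Antibody tags were deposited as raw counts per cell. Alignment was to mm10 with Cell Ranger 3.0.2 and cells were processed with Seurat 3.0.1, per the submitters' processing notes. Classes, clusters and hashtag groups were read from the deposited metadata, in which 29 columns were not used. How 3263 cells per group were chosen, and how doublets were treated, is not given in the sources used here, and no doublet caller was run. Raw RNA counts are not in the deposited table, so cells were not thinned to a common depth.

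RNA values were averaged over the CD8+ cells of a pool (at least 10 cells, 11 of 12 pools) and log2(mean + 0.05) was fitted with limma 3.58.1 (trended prior variance) for genes with a mean of at least 0.05. Aged antibiotic against aged control used the 6 aged pools, and the other contrasts used all 11. Summed tags and cells per class were tested with edgeR 4.0.16 (R 4.3.3), with DESeq2 1.42.0 as an alternative. P-values were adjusted by Benjamini-Hochberg within a contrast, at a threshold of 0.05. Shares of cells were also tested by exact permutation over pools. The intervals on shares of cells are exact binomial at 95% and cover counting error only. The exception is the limit for Gzmk in young microglia, an approximate bound set from the number of cells alone. Each pool holds 2 mice by the labels. p-values measure the spread between pools. The fit was tested on simulated data, where the contrast in young mice made false calls.

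Named genes were up to 6 in each direction with the largest change among those called whose pools did not overlap, 10 on each side between classes, and members of the gene lists. The CD8+ class, the lists and the tests were chosen with earlier results of these data known. Replicate numbers of hashtags did not pair pools: deviations of same-numbered pools correlated at -0.0317 to 0.0914. A few genes are not reported here.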

Additional observations from a re-analysis of the deposited data

Results flagged for a closer look

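In the pool aged control 2, 43 cells of the class ILCs had CD8a tags at or above the lowest CD8+ cell of the aged well, a signal of CD8 in cells that the comparisons of CD8+ cells do not use. The whole aged well had 47 such ILCs of 175 and the young well 6 of 155. Of the 47, 46 also had RNA of Cd3d, Cd3e or Cd3g. Their CD3 tags were at most 4, under the 5 tags of the lowest aged CD8+ cell. Why these cells were concentrated in 1 pool was not tested.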

How the results depend on the processing

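Calls between ages numbered 148. They were 70 with pools of at least 5 cells, 1276 with pools of at least 20, 91 with a replicate block by hashtag number, 88 in cells without RNA of Ccr7, Lef1 and S1pr1, and 44 to 311 with a pool left out. In control mice 20 calls became 12 and 779 at those minimums, 11 in cells without RNA of Ccr7, Lef1 and S1pr1, and 0 to 176 with a pool left out. For antibiotics in aged mice, 10 became 17 with limma's arrayWeights, 17 with means of log values, 1 when all pools shared the spread, and 2 to 18 with a pool left out. In young mice 12 became 19 without a filter or with a mean of at least 0.2, 0 at 5 cells, 1053 at 20, 1 with cell-number weights or arrayWeights, 63 with means of logs, 45 in cluster 2, and 2 to 422 with a pool left out. The difference between antibiotic effects, 0, became 1 without a filter, 523 at 20 cells and 0 to 57 with a pool left out. A minimum of 20 cells leaves 1 pool in each young arm, and such a lone pool is assumed to vary like the others. The fits in cells without RNA of Ccr7, Lef1 and S1pr1 took pools of at least 7 such cells.

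Tags called between ages, 9, became 23 by centred log ratio, 8 with the replicate block and 6 to 10 with a pool left out. Tags called for antibiotics in young mice, 2, became 0 without a composition factor, 1 by centred log ratio, 1 at 20 cells, 0 in cluster 2 and 0 to 1 with a pool left out. Pools of the same hashtag number share only the number. The log2 change of the CD8+ share with age stayed between 2.37 and 2.80 with a pool left out. Among single genes, Jchain in aged mice reversed to -0.045 with means of log values (limma adjusted p = 0.935), and S1pr4 with age to 0.60 in cells without those 3 genes (0.473). For age, 424 gene values stayed on their side of the threshold and 118 did not. The cause of these shifts was not tested. Few CD8+ cells in young pools (5 to 31) limit every comparison that uses them.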
